A study of Homo sapiens with 12 samples.

Results

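The Notch receptors, ligands and HES targets described here were 10 genes, picked by symbol from the 58302 genes of the deposited expression table, where each symbol occurred once. They were the 4 receptors NOTCH1, NOTCH2, NOTCH3 and NOTCH4, the 3 ligands JAG1, JAG2 and DLL1, and the 3 target genes HES1, HES4 and HEY1. A list of 50 other Notch pathway genes was read beside them. RNA-sequencing had been applied to 12 libraries of 3 established prostate cell lines, with 4 libraries of each line, to find genes whose expression differs between a benign line and prostate cancer (PCa) lines. BPH-1 is an immortalised benign prostate epithelial line, and PC3 and DU145 are PCa lines that were first grown from metastases. All 3 lines carried the genotype label WT, were grown in DMEM with fetal bovine serum and antibiotics, and had no treatment in their labels. Each line descends from the cells of 1 donor, so a difference between lines is a difference between these lines. The labels did not say whether the 4 libraries of a line came from separate cultures, so the p-values measured the spread between these libraries, which may be technical.

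Notch receptors are activated when ligands on neighbouring cells bind them, after which proteases cut the receptor. The freed intracellular part of the receptor moves to the nucleus, joins the DNA-binding protein RBPJ and a Mastermind coactivator, and turns on target genes, of which the HES and HEY repressors are the best known. In the prostate the pathway is known for its part in the growth and differentiation of basal and luminal epithelial cells.

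In these lines DLL1 was detected at a clear level in BPH-1 and close to 0 in both PCa lines. NOTCH3 was lowest in PC3, JAG1 was low in DU145, and HES1 and HEY1 were highest in PC3. NOTCH1 and NOTCH2 were expressed in every library of the 3 lines, and NOTCH4 was at the edge of detection in all of them. PC3 and DU145 differed from each other in 6 of the 8 genes that could be tested between them, where 48.3% of all genes tested differed.

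Expression is given as FPKM, the reads counted on a gene per kilobase of its length, scaled to the reads counted in the library. The depth, found from the steps between low values, was 12950663 to 16309559 reads per library. Library replicates 1 to 4 are given in that order wherever 4 values follow each other. Lines were compared with limma on log2(FPKM + 1), over all genes that passed a filter on low values, with Benjamini-Hochberg (BH) adjustment and a threshold of 0.05. A log2 fold change on this scale is smaller than the log2 of the FPKM ratio where FPKM is low. In bulk RNA, fewer cells that express a gene and less RNA per cell cannot be told apart.

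Libraries differed in how FPKM followed the GC content of genes. The median log2 level of 1407 GC-rich genes (over 60% GC) relative to 2515 GC-poor genes (under 45% GC), taken against the mean of all libraries, was between -1.09 and -0.90 in BPH-1 and between 0.03 and 1.16 in PC3. In DU145 it was 1.13 and 1.74 in replicates 1 and 3 but -0.50 and -0.21 in replicates 2 and 4, so replicates 1 and 3 stood apart from the other DU145 libraries. The trend thus moved with the line as well. Where a call of 1 of the 10 genes changed when this trend was divided out of each library, or when DU145 was represented by replicates 2 and 4 only, both values are given.

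Markers of epithelial cells were present in all lines, with KRT8 at a mean FPKM of 31.1 in BPH-1, 23.0 in PC3 and 19.7 in DU145 and KRT18 at 35.8, 29.5 and 69.0. The epithelial adhesion genes were uneven, as CDH1 had 28.4 in BPH-1 and under 1 in PC3 (0.786) and DU145 (0.180), and EPCAM had 60.8, 9.10 and 0.376. The basal markers KRT5, KRT14 and TP63 had 147, 203 and 12.9 in BPH-1 and at most 0.216 in the PCa lines. KLK3, a marker of secretory luminal cells, was listed at 0 in every line. Of 5 endothelial markers, CDH5, VWF and TEK were at most 0.134 in each line, while PECAM1 (1.68) and KDR (0.712) were higher in PC3. Of 6 markers of mural cells and fibroblasts, COL1A1 was the only one at or above 1 in any line (2.44 in BPH-1 and 3.51 in PC3).

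NOTCH1, a receptor with broad expression, lies on the minus strand of chromosome 9 at 136494444 to 136545862 (GRCh38). Its FPKM was 8.92, 10.5, 8.91 and 10.6 in BPH-1, 7.46, 7.09, 6.63 and 10.2 in PC3, and 10.99, 5.99, 10.1 and 8.15 in DU145. The 3 lines overlapped, and the DU145 libraries with the higher values were replicates 1 and 3. No comparison of NOTCH1 passed the threshold, with a log2 fold change of -0.29 (95% interval -0.61 to 0.03) in PC3 against BPH-1, -0.16 (-0.59 to 0.28) in DU145 against BPH-1 and -0.14 (-0.60 to 0.33) in PC3 against DU145. NOTCH1 is a GC-rich gene, with 63.7% GC over its annotated transcripts. With the GC trend divided out, NOTCH1 was lower in PC3 than in BPH-1 (log2 fold change -0.80, limma BH-adjusted p = 0.000126) and lower in DU145 than in BPH-1 (-0.64, limma BH-adjusted p = 0.000641). Its coefficient of variation over the 4 DU145 libraries went from 25.2% to 10.9% under that correction. With DU145 replicates 2 and 4 only, NOTCH1 was also lower than in BPH-1 (-0.42, limma BH-adjusted p = 0.0406).

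NOTCH2, the receptor with the highest mean FPKM in each line, lies on the minus strand of chromosome 1 at 119911553 to 120069626. Its values were 18.8, 19.7, 19.6 and 18.6 in BPH-1, 17.5, 17.6, 19.3 and 15.5 in PC3, and 8.75, 14.1, 4.64 and 14.9 in DU145. All 4 DU145 libraries lay below all libraries of the other lines, and DU145 replicates 1 and 3 were the lowest. NOTCH2 fell in DU145 against BPH-1 (log2 fold change -0.92, SE 0.30, limma BH-adjusted p = 0.0222). With DU145 replicates 2 and 4 only, the fall was -0.38 (limma BH-adjusted p = 0.00725), so its size rested on replicates 1 and 3, and leaving out replicate 1 alone gave a limma BH-adjusted p of 0.0550. NOTCH2 was 0.78 higher in PC3 than in DU145 on the log2 scale (95% interval 0.09 to 1.47), which did not pass the threshold (limma BH-adjusted p = 0.0619). That difference passed with the GC trend divided out (0.79, limma BH-adjusted p = 0.0160), and was 0.25 with DU145 replicates 2 and 4 only (limma BH-adjusted p = 0.134). PC3 and BPH-1 overlapped, with a log2 fold change of -0.13 (95% interval -0.35 to 0.08). NOTCH2NLA, a partial copy of NOTCH2 that can share reads with it, had a mean FPKM of 1.16 in BPH-1, 1.65 in PC3 and 1.01 in DU145.

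NOTCH3, a receptor known from smooth muscle and pericytes as well as from epithelial tumours, lies on the minus strand of chromosome 19 at 15159038 to 15200981. Its FPKM in BPH-1 was 1.68, 5.96, 1.66 and 9.34, a 5.61-fold range within the line. In PC3 its FPKM was 0.248, 0.379, 0.511 and 0.248, from 34 to 75 reads per library. DU145 had 12.004, 7.71, 12.3 and 9.78. PC3 lay below both other lines without overlap, whereas BPH-1 replicate 4 was above DU145 replicate 2. NOTCH3 fell in PC3 against BPH-1 (log2 fold change -1.83, SE 0.41, limma BH-adjusted p = 0.00309) and in PC3 against DU145 (-3.07, SE 0.18, limma BH-adjusted p = 1.88e-06), where the ratio of mean FPKM was 30.1. It was higher in DU145 than in BPH-1 (1.25, SE 0.42, limma BH-adjusted p = 0.0261). The exact permutation test of that last difference gave p = 0.0571, and the call was lost in 10 of 22 alternatives, among them the GC correction (0.82, limma BH-adjusted p = 0.107) and DU145 replicates 2 and 4 only (1.025, limma BH-adjusted p = 0.164). Division by the GC trend brought the coefficient of variation of NOTCH3 in DU145 from 20.5% to 7.62%, while in BPH-1 it remained at 75.8% against 79.7%.

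NOTCH4, the receptor best known from endothelial cells, lies on the minus strand of chromosome 6 at 32194843 to 32224067. It had 0, 12, 11 and 14 reads in BPH-1, 8, 0, 1 and 0 reads in PC3, and 35, 11, 25 and 0 reads in DU145. Its FPKM was at most 0.170 in any library, and 4 of the 12 libraries had no read. No difference was found for DU145 against BPH-1 (log2 fold change 0.05, 95% interval -0.07 to 0.17), and NOTCH4 did not pass the filter for the comparisons with PC3. The single read of PC3 replicate 3 was worth 0.00566 FPKM, and a count of 0 allows up to 3 reads, which covers counting error only. GPSM3 overlaps NOTCH4 by 681 bases on the same strand.

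Of the FPKM summed over the 4 receptors in a library, NOTCH2 held 57.9% ± 7.995 (SD, n = 4) in BPH-1, 68.0% ± 5.79 in PC3 and 35.1% ± 15.6 in DU145. NOTCH3 held 12.95% ± 9.05, 1.35% ± 0.467 and 35.1% ± 7.999, and NOTCH1 held 29.04% ± 1.18, 30.6% ± 6.17 and 29.5% ± 7.52. The summed FPKM of the 4 receptors was 33.6 ± 4.51 in BPH-1, 25.7 ± 0.655 in PC3 and 29.9 ± 2.83 in DU145. The share of NOTCH3 did not overlap between the lines, at 5.50% to 24.1% in BPH-1, 0.959% to 1.93% in PC3 and 27.7% to 45.2% in DU145.

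**Figure D1:**
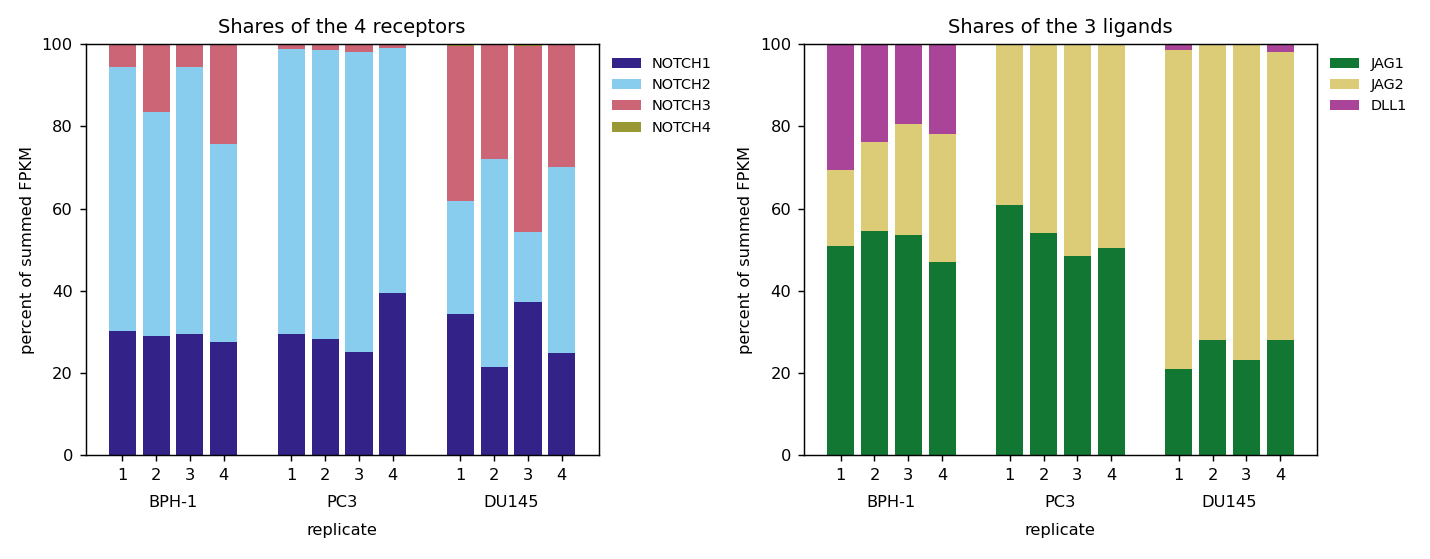
Share of each receptor in the summed FPKM of the 4 receptors (left) and of each ligand in the summed FPKM of the 3 ligands (right), in percent, with 1 stacked bar for each library, in order of line and replicate. NOTCH3 held 35.1% of the receptor sum on average in DU145 and 1.35% in PC3, and DLL1 held 23.9% of the ligand sum in BPH-1 and under 1% on average in the PCa lines.

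JAG1, a ligand of the Jagged type, lies on the minus strand of chromosome 20 at 10637684 to 10674107. BPH-1 libraries had an FPKM of 11.5, 11.9, 10.3 and 8.34, PC3 libraries 15.4, 13.5, 12.49 and 13.1, and DU145 libraries 1.497, 1.22, 1.60 and 1.69. The 3 lines did not overlap, and DU145 was the low line in every library. JAG1 fell in DU145 against BPH-1 (log2 fold change -2.20, SE 0.16, limma BH-adjusted p = 3.28e-06). In PC3 against DU145 it was higher by 2.55 (SE 0.14, limma BH-adjusted p = 1.22e-06), a ratio of mean FPKM of 9.07. The higher level of JAG1 in PC3 than in BPH-1 was small (0.35, SE 0.13, limma BH-adjusted p = 0.0370) and was lost in 8 of 21 alternatives. It was 0.16 with the GC trend divided out (limma BH-adjusted p = 0.316) and 0.10 with every library brought to the same summed FPKM (limma BH-adjusted p = 0.545). That rescaling moved the median log2 fold change over all genes tested in PC3 against BPH-1 from -0.13 to -0.28, and in DU145 against BPH-1 from -0.03 to -0.16.

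JAG2, the other Jagged ligand, lies on the minus strand of chromosome 14 at 105140981 to 105168824. Its FPKM was 4.25, 4.75, 5.22 and 5.50 in BPH-1, 9.94, 11.5, 13.2 and 12.8 in PC3, and 5.51, 3.13, 5.29 and 4.23 in DU145. PC3 was above both other lines in all of its libraries, and DU145 overlapped BPH-1. JAG2 was higher in PC3 than in BPH-1 (log2 fold change 1.12, SE 0.12, limma BH-adjusted p = 4.07e-05) and than in DU145 (1.23, SE 0.18, limma BH-adjusted p = 0.000448). With the GC trend divided out, the rise against BPH-1 was 0.62 (limma BH-adjusted p = 0.000534). DU145 against BPH-1 gave -0.12 (95% interval -0.53 to 0.29) as deposited, and -0.56 (limma BH-adjusted p = 0.00186) with the GC trend divided out. JAG2 has 64.1% GC over its annotated transcripts.

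DLL1, a ligand of the Delta type, lies on the minus strand of chromosome 6 at 170282206 to 170306565. In BPH-1 its FPKM was 6.95, 5.19, 3.76 and 3.89, from 1137 reads in all. PC3 had 0, 1, 0 and 4 reads, and DU145 had 6, 0, 0 and 6 reads. Every BPH-1 library was above every library of the PCa lines. DLL1 fell in PC3 against BPH-1 (log2 fold change -2.50, SE 0.16, limma BH-adjusted p = 1.45e-06) and in DU145 against BPH-1 (-2.47, SE 0.18, limma BH-adjusted p = 2.75e-06). It passed the filter for both comparisons through its BPH-1 libraries alone, so these calls and the lack of overlap were nearly fixed in advance. Per read at equal depth, BPH-1 exceeded PC3 by 197-fold (95% interval of the counts 84.1 to 607) and DU145 by 94.1-fold (53.6 to 183), and these intervals cover counting error only. DLL1 did not pass the filter for PC3 against DU145, with 5 reads in all in PC3 and 12 in DU145. FAM120B overlaps DLL1 on the opposite strand and had a mean FPKM of 7.75 in BPH-1, 5.94 in PC3 and 2.39 in DU145.

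Among the ligands, JAG1 held 51.5% ± 3.36 (SD, n = 4) of the summed FPKM in BPH-1, 53.4% ± 5.42 in PC3 and 25.1% ± 3.53 in DU145, and JAG2 held 24.6% ± 5.50, 46.5% ± 5.37 and 74.1% ± 3.69. DLL1 held 23.9% ± 4.76 in BPH-1, 0.0995% ± 0.151 in PC3 and 0.846% ± 1.01 in DU145. The summed FPKM of the 3 ligands was 20.4 ± 2.31 in BPH-1, 25.5 ± 0.396 in PC3 and 6.10 ± 1.25 in DU145, and every DU145 library was below every library of the other lines. The deposited FPKM divides by the summed length of a gene's distinct exons, in which overlapping exons are counted repeatedly. With merged exons the mean share of JAG2 passed that of JAG1 in PC3 (54.3% against 45.7%). In PC3 replicate 1 it did not, with a merged-exon FPKM of 16.3 for JAG2 and 18.5 for JAG1. A ratio of FPKM between lines does not depend on the length used. A fold change on log2(FPKM + 1) does where FPKM is low, and was not fitted with merged exons.

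HES1 and HES4 encode repressors that are direct Notch targets in many tissues. Their promoters are shown because these were the 2 of the 8 members matched in the RefSeq promoter table (GRCh38.p14) whose windows held TGGGAA, the core of the motif bound by RBPJ. The window ran from 250 bases before to 50 bases after the gene start, and TGGGAA was searched on both strands. Among 35116 promoters, 24.03% held the motif at least once and 3.80% held it at least 2 times. The 250 bases before the start are printed 5′ to 3′ on the gene's strand, with the motif in capitals. HES1 is at chr3:194135898-194136147 on the plus strand, with motifs that begin 84 and 70 bases before the start, and HES4 at chr1:1000098-1000347 on the minus strand, with 1 motif that begins 76 bases before the start. These starts are those of the RefSeq promoters. By the loci deposited with the expression values, HES1 starts at 194136145 and HES4 at 1000172, both inside the printed bases. By those loci the HES4 motif spans the gene start, whereas the HES1 motifs still lie before it.
HES1: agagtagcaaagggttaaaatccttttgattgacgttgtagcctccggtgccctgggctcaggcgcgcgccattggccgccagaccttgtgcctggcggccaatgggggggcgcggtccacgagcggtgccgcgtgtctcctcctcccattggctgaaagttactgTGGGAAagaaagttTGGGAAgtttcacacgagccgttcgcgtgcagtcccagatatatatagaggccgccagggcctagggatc
HES4: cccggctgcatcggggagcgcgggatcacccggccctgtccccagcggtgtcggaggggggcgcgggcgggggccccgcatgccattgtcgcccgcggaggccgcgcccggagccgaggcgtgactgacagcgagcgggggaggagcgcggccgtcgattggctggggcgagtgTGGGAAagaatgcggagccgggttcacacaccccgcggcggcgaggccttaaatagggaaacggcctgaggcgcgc
The windows of NOTCH1, NOTCH2, NOTCH3, NOTCH4, JAG1 and JAG2 held no match. A match is a string of letters and does not show binding in these lines.

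HES1 lies at 194136145 to 194138732 of chromosome 3. Its FPKM was 7.72, 9.27, 6.50 and 9.16 in BPH-1, 16.9, 14.7, 9.67 and 20.9 in PC3, and 2.60, 1.94, 3.21 and 2.56 in DU145. The lines stood in the order PC3, BPH-1, DU145 with no overlap, and PC3 replicate 3 was close to the highest BPH-1 library. HES1 was higher in PC3 than in BPH-1 (log2 fold change 0.82, SE 0.21, limma BH-adjusted p = 0.00709) and lower in DU145 than in BPH-1 (-1.36, SE 0.18, limma BH-adjusted p = 0.000108). Between the PCa lines the difference was 2.17 (SE 0.23, limma BH-adjusted p = 5.96e-05), a ratio of mean FPKM of 6.03. All 3 calls were kept under every alternative that was run for HES1, with 0.63 (limma BH-adjusted p = 0.0205) in PC3 against BPH-1 after the GC correction.

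HES4, a HES gene that the mouse lacks, lies on the minus strand of chromosome 1 at 998962 to 1000172. It had an FPKM of 1.76, 2.59, 1.65 and 1.79 in BPH-1, 1.83, 2.65, 2.76 and 2.07 in PC3, and 1.48, 0.919, 1.10 and 0.709 in DU145. DU145 was below both other lines in all libraries, and PC3 and BPH-1 overlapped. HES4 fell in DU145 against BPH-1 (log2 fold change -0.53, SE 0.16, limma BH-adjusted p = 0.0155) and was higher in PC3 than in DU145 (0.70, SE 0.16, limma BH-adjusted p = 0.00654). In PC3 against BPH-1 it gave 0.18 (95% interval -0.15 to 0.50), and -0.28 with the GC trend divided out (limma BH-adjusted p = 0.122). With 74.2% GC, HES4 has the highest GC content of the 10 genes.

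HEY1 encodes a HEY repressor that can pair with HES1. BPH-1 libraries had an FPKM of 0.112, 0.191, 0.194 and 0.228, from 16 to 33 reads. PC3 libraries had 3.16, 2.81, 3.403 and 2.45, and DU145 libraries 0.612, 0.601, 0.580 and 0.643. The order PC3, DU145, BPH-1 held in all libraries without overlap. HEY1 was higher in PC3 than in BPH-1 (log2 fold change 1.74, SE 0.10, limma BH-adjusted p = 6.38e-07), with a ratio of mean FPKM of 16.3. It was also higher in DU145 than in BPH-1 (0.45, SE 0.06, limma BH-adjusted p = 8.87e-05) and in PC3 than in DU145 (1.29, SE 0.13, limma BH-adjusted p = 3.56e-05). HEY1 thus rose in DU145 against BPH-1 where HES1 and HES4 fell. All 3 HEY1 calls were kept under every alternative that was run.

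**Figure D2:**
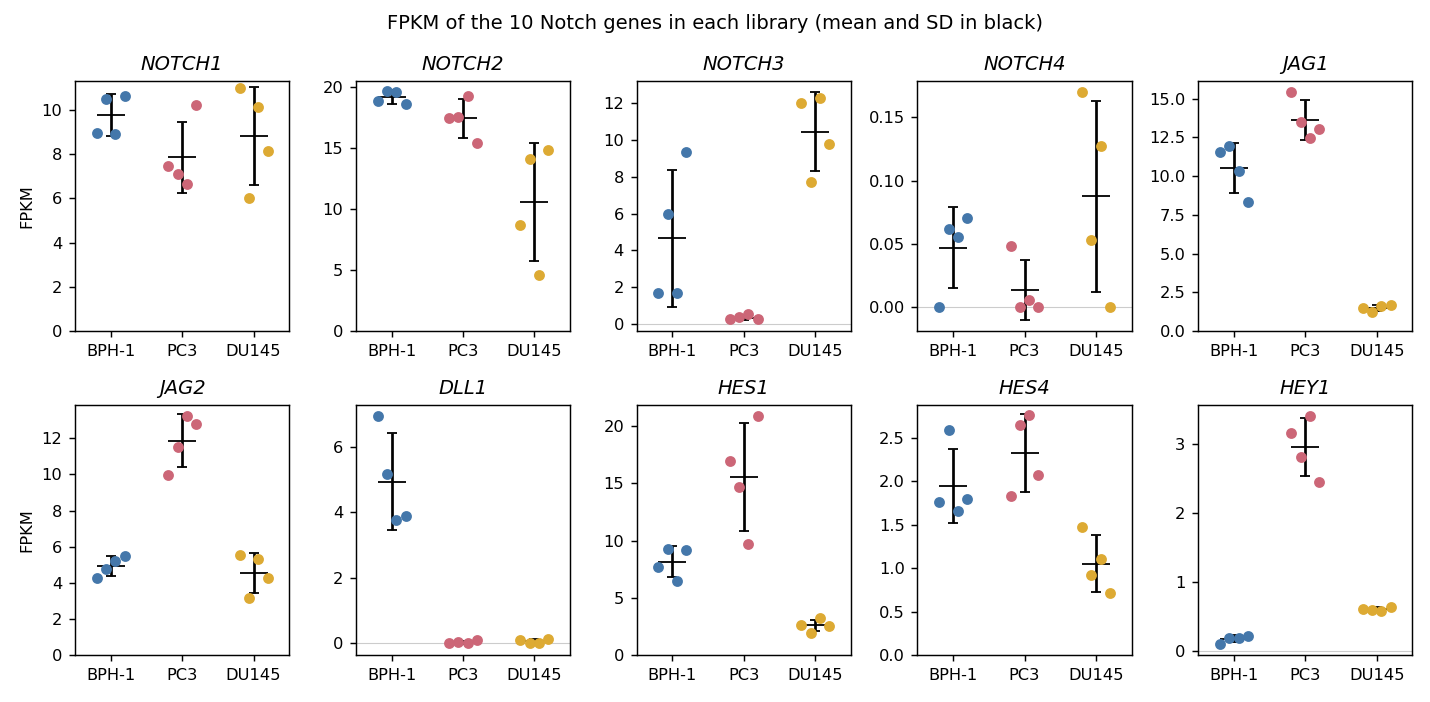
FPKM of each of the 10 genes (vertical axis, linear, own scale for each gene) in the 4 libraries of BPH-1, PC3 and DU145. Points are libraries in replicate order, and the black line and bar are the mean and SD. DLL1 was near 0 in both PCa lines, NOTCH3 in PC3 (0.248 to 0.511), and JAG1 was low in DU145 (1.22 to 1.69).

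FPKM is per length, so the genes can also be ranked within a line. In BPH-1 the order of mean FPKM was NOTCH2 (19.2), JAG1 (10.5), NOTCH1 (9.73), HES1 (8.16), DLL1 (4.95), JAG2 (4.93), NOTCH3 (4.66), HES4 (1.95), HEY1 (0.181) and NOTCH4 (0.0470). The library ranges of the genes from JAG1 to HES4 overlapped with those of their neighbours in that order. In PC3 the order was NOTCH2 (17.4), HES1 (15.6), JAG1 (13.6), JAG2 (11.9), NOTCH1 (7.84), HEY1 (2.96), HES4 (2.33), NOTCH3 (0.347), DLL1 (0.0256) and NOTCH4 (0.0136). There the neighbours from NOTCH2 down to NOTCH1 overlapped, as did HEY1 with HES4 and DLL1 with NOTCH4. In DU145 it was NOTCH2 (10.6), NOTCH3 (10.4), NOTCH1 (8.81), JAG2 (4.54), HES1 (2.58), JAG1 (1.502), HES4 (1.05), HEY1 (0.609), NOTCH4 (0.0875) and DLL1 (0.0549). The 3 receptors overlapped there, and so did JAG2 with HES1, JAG1 with HES4, and NOTCH4 with DLL1. With merged exons the genes with many overlapping exons moved up, HES4 to 6.04, 7.22 and 3.26 in BPH-1, PC3 and DU145 and HEY1 to 0.520, 8.49 and 1.75. This put the mean of HEY1 above that of NOTCH1 (8.03) in PC3. Their PC3 libraries overlapped, at 7.02 to 9.77 for HEY1 and 6.78 to 10.4 for NOTCH1. The merged-exon values of NOTCH1 also rest on a length taken from the steps of its values.

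In PC3 against BPH-1, 6 of the 9 members tested were called, against 67.6% of the 16408 genes tested. Those higher in PC3 were HES1, HEY1, JAG1 and JAG2 (4 members, against 27.1% of all genes), and those lower were DLL1 and NOTCH3 (2 members, against 40.4%). The 6 called members were also the 6 whose libraries did not overlap (64.4% of all genes). DLL1, among them, passed the filter through its BPH-1 libraries alone. The median log2 fold change of the members was 0.18, beside -0.13 over all genes. With most genes called between these lines, the count for the members was near that for genes at large.

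In DU145 against BPH-1, 7 of the 10 members were called, against 62.7% of 17016 genes. HEY1 and NOTCH3 were higher in DU145 (30.3% of all genes), and DLL1, JAG1, HES1, HES4 and NOTCH2 were lower (32.4%). The lines did not overlap for 6 members (59.5% of all genes), those called other than NOTCH3. DLL1, among them, again passed the filter through its BPH-1 libraries alone. The median of the members was -0.34, beside -0.03 over all genes. With the GC trend divided out, 1 member was called higher (HEY1) and 7 lower, as NOTCH1 and JAG2 were added and NOTCH3 was lost. Of the 17002 genes tested in that setting, 5157 were called higher and 5487 lower. With DU145 replicates 2 and 4 only, 1 member was called higher (HEY1) and 6 lower, with NOTCH1 added. Of the 17016 genes, 5105 were then called higher and 5201 lower.

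In PC3 against DU145, 6 of the 8 members tested were called, against 48.3% of 16420 genes. HES1, HES4, HEY1, JAG1 and JAG2 were higher in PC3 (20% of all genes) and NOTCH3 was lower (28.3%). The lines did not overlap for 7 members, NOTCH2 included (46.5% of all genes). The median of the members was 1.01, beside -0.05 over all genes. The same counts were found with DU145 replicates 2 and 4 only, where 8662 of the 16420 genes were called. The 3 comparisons share libraries in pairs, so they are not independent of each other.

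**Figure D3:**
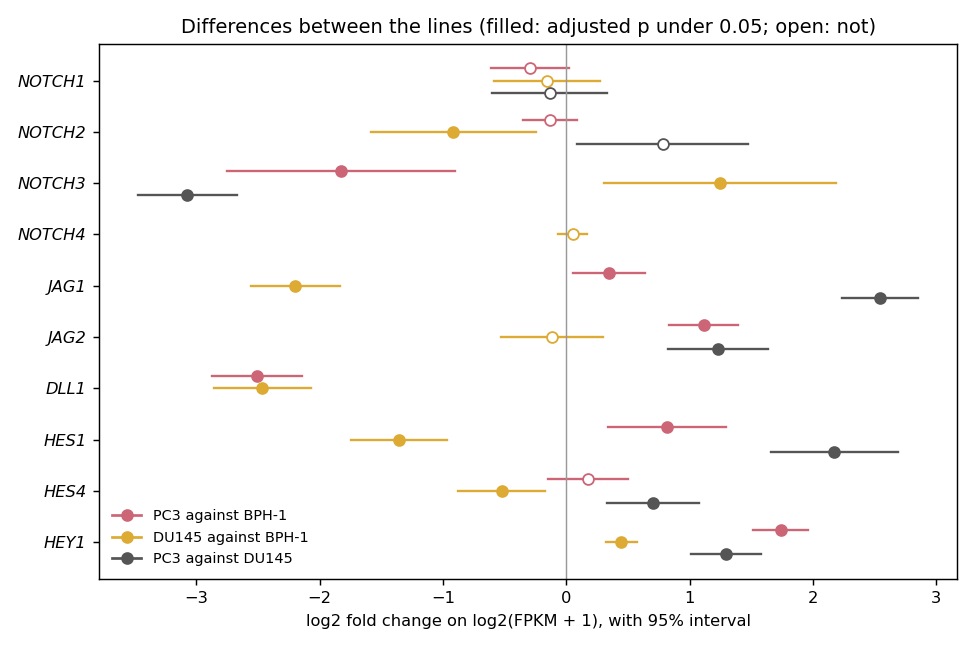
Log2 fold change on log2(FPKM + 1) of each gene in the 3 comparisons (horizontal axis), with the 95% interval from limma. Filled points had a BH-adjusted p under 0.05 and open points did not, and genes that did not pass the filter have no point. JAG1 was 2.20 lower in DU145 than in BPH-1 and 2.55 higher in PC3 than in DU145.

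**Figure D4:**
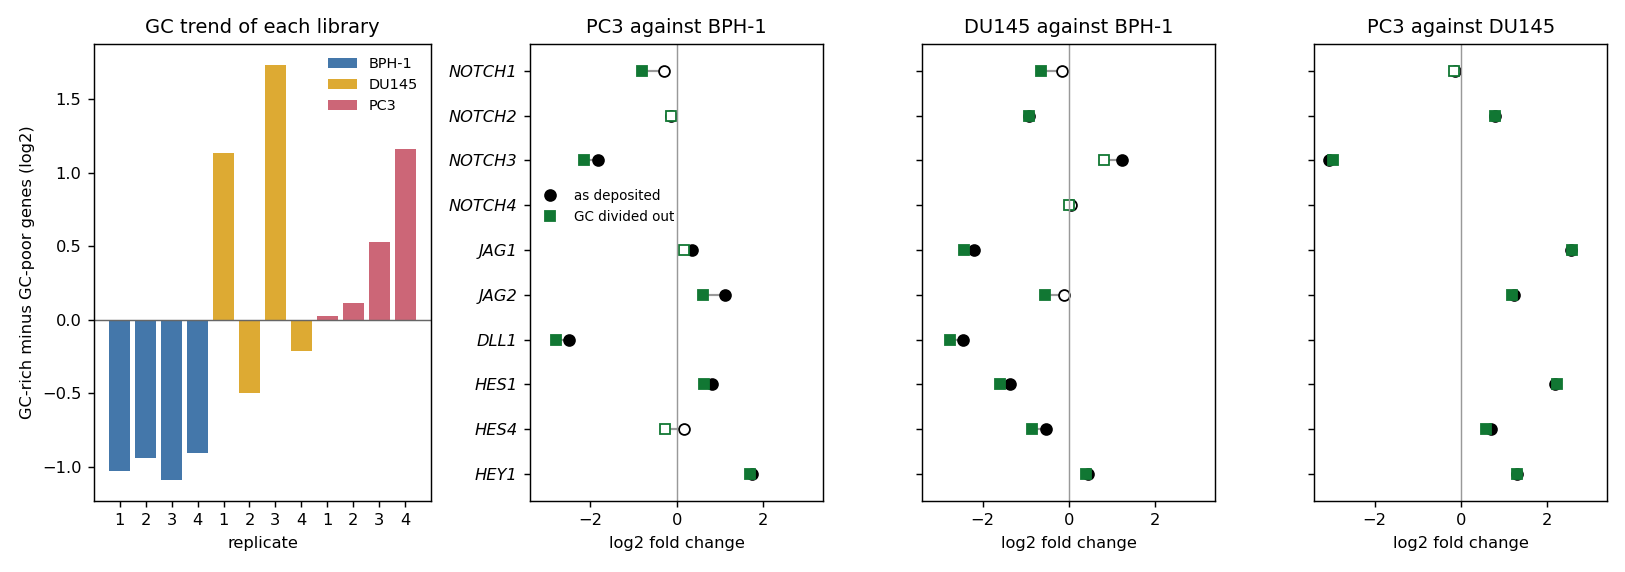
Left, median log2 level of GC-rich genes relative to GC-poor genes in each library, taken against the mean of all libraries. Right, log2 fold change of each gene in the 3 comparisons as deposited (circles) and with each library's GC trend divided out (squares), filled where the BH-adjusted p was under 0.05. NOTCH1 moved from -0.29 to -0.80 in PC3 against BPH-1, and NOTCH3 from 1.25 to 0.82 in DU145 against BPH-1.

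The 50 other pathway genes were counted by role. In PC3 against BPH-1, 31 of the 44 tested were called (70.5%, against 67.6% of all genes), 9 higher and 22 lower, with a median log2 fold change of -0.38, beside -0.13 over all genes. The share called was thus near that of genes at large. Genes of the nuclear complex, which carry the signal to DNA, made up 10 of these calls out of 11 tested, 2 higher and 8 lower. RBPJ, the DNA-binding partner of the receptors, averaged 3.51 ± 0.726 (SD, n = 4) in BPH-1 and 1.55 ± 0.739 in PC3 (log2 fold change -0.86, limma BH-adjusted p = 0.00982). That fall of RBPJ was -0.12 with the GC trend divided out (limma BH-adjusted p = 0.586). The 5 largest called changes were falls, of NEURL1, a ubiquitin ligase that acts on ligands (-2.81), of the RBPJ corepressor CIR1 (-2.12), of the protease ADAM10, which cuts the receptor (-2.03), of the ubiquitin ligase ITCH (-1.95), and of HES7 (-1.67). With the GC trend divided out they were -3.21, -0.98, -1.22, -0.94 and -2.07, each still called. That correction left 30 pathway genes called, 23 of them among the 31, where 10555 of the 16395 genes tested were called.

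In DU145 against BPH-1, 34 of the 47 pathway genes tested were called (72.3%, against 62.7% of all genes), 13 higher and 21 lower, with a median of -0.34, beside -0.03 over all genes. After the GC correction 35 were called, 12 higher and 23 lower, where 10644 of the 17002 genes tested were called. Of the ubiquitin ligases and trafficking genes, 10 of 12 were called, 2 higher and 8 lower. DTX1, among the higher ones, was listed at 0 in every BPH-1 and PC3 library and passed the filter through DU145 alone. Its calls in both comparisons with DU145, which the counts include, were thus nearly fixed in advance. Of the genes for receptor cleavage 6 of 9 were called, 5 higher and 1 lower. HEYL, another HEY repressor, had an FPKM of 6.96, 3.99, 6.46 and 5.31 in DU145 and at most 0.105 in any library of BPH-1 or PC3. It passed the filter only with the DU145 libraries, as it was not tested in PC3 against BPH-1. Its calls in the comparisons with DU145 were thus nearly fixed in advance. HEYL gave the largest called change of the pathway genes in DU145 against BPH-1 (log2 fold change 2.67, limma BH-adjusted p = 1e-06). ITCH (-2.50), CIR1 (-2.45), NEURL1 (-1.94) and SNW1, a nuclear cofactor (-1.78), followed with falls. RBPJ fell as well (-1.30, limma BH-adjusted p = 0.00381), with an FPKM of 0.233, 1.67, 0.192 and 1.71 in DU145. As for ITCH (1.99, 10.1, 1.13 and 11.7), the low libraries of RBPJ were replicates 1 and 3. With DU145 replicates 2 and 4 only, the falls were -0.73 for RBPJ, -1.38 for ITCH and -0.76 for SNW1, each still called. With the GC trend divided out they were -0.67, -1.49 and -1.35, and the fall of CIR1 was -1.27, each also still called. DLL4, an endothelial ligand, had a mean of 0.286 in BPH-1, 0.250 in PC3 and 1.11 in DU145, and was higher in DU145 than in BPH-1 (0.70, limma BH-adjusted p = 0.00162).

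In PC3 against DU145, 25 of the 46 pathway genes tested were called (54.3%, against 48.3% of all genes), 11 higher and 14 lower, with a median of -0.04, beside -0.05 over all genes. After the GC correction 31 were called, 13 higher and 18 lower, where 9687 of the 16407 genes tested were called. All 5 of the other targets tested were called, 2 higher and 3 lower, whereas 2 of 11 genes of the nuclear complex were. Within that complex, the call of SNW1 depended on the DU145 libraries used. With DU145 replicates 2 and 4 only, SNW1 went from 0.27 to -0.75 and was called (limma BH-adjusted p = 0.0129). RBPJ went from 0.44 to -0.13 and CIR1 from 0.33 to 0.17, and neither was called. HES2 was 2.46 higher in PC3, where its FPKM was 5.43, 8.95, 11.3 and 5.97 against 0.661, 0.360, 0.677 and 0.575 in DU145. HES7 was lower in PC3 (-2.13) and HEYL was lower (-2.65), while the ubiquitin ligase MIB2 (1.87) was higher. NRARP, a target that acts back on the Notch complex, had a mean FPKM of 11.4 ± 3.37 in BPH-1, 7.18 ± 0.364 in PC3 and 2.94 ± 1.40 in DU145. NRARP fell in PC3 against BPH-1 (-0.56, limma BH-adjusted p = 0.0284) and in DU145 against BPH-1 (-1.68, limma BH-adjusted p = 0.000674), and was higher in PC3 than in DU145 (1.12, limma BH-adjusted p = 0.00399). The fall of NRARP in PC3 against BPH-1 was -1.11 with the GC trend divided out (limma BH-adjusted p = 0.000869), and was not called with upper-quartile scaling (-0.40, limma BH-adjusted p = 0.0941) or median-of-ratios scaling (-0.47, limma BH-adjusted p = 0.0585). DLL3 had a mean of 0.555, 1.13 and 1.12 in BPH-1, PC3 and DU145, HES6 had 0.254, 0.318 and 1.11, and HEY2 had 0.485 in BPH-1, 0.295 in DU145 and was listed at 0 in all PC3 libraries.

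**Figure D5:**
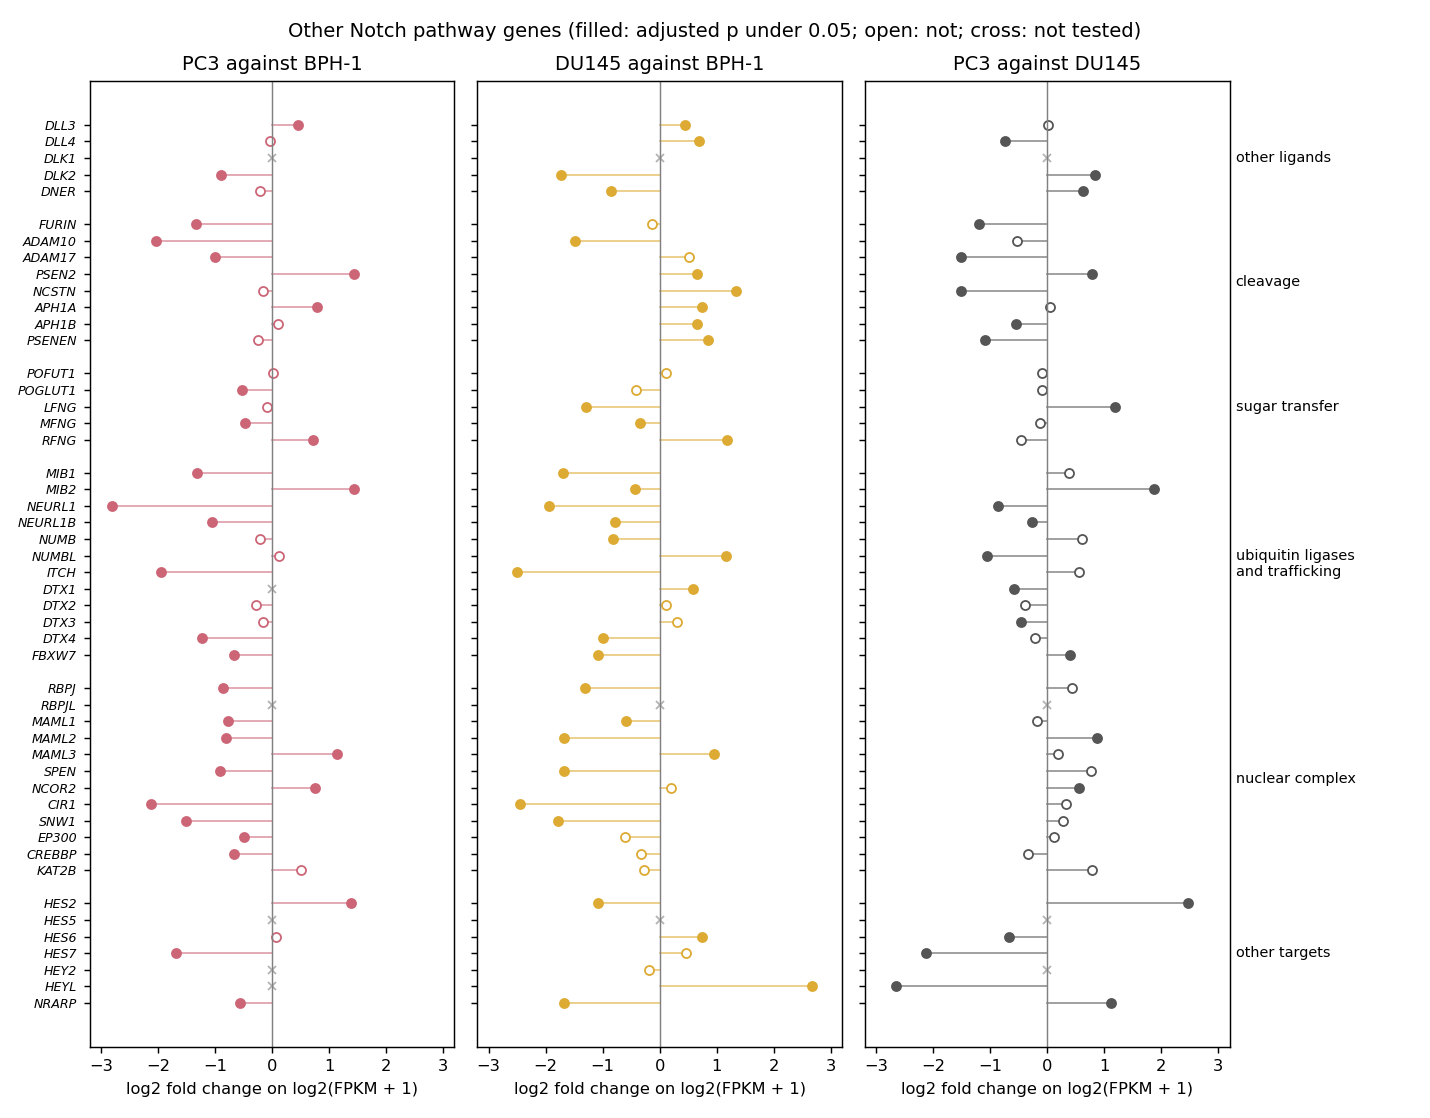
Log2 fold change on log2(FPKM + 1) of other Notch pathway genes by role, in the 3 comparisons (horizontal axes). Filled points had a limma BH-adjusted p under 0.05, open points did not, and crosses mark genes that were not tested. NEURL1 stood at -2.81 in PC3 against BPH-1, and HEYL at 2.67 in DU145 against BPH-1.

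Genes with the most similar pattern over the 3 lines were sought among 11703 protein-coding genes with a mean FPKM of at least 1 in some line. Likeness was the Euclidean distance between the 3 line means of log2(FPKM + 1), each gene centred on its own mean. The nearest gene to JAG1 was SPINT2 (distance 0.0514; mean FPKM 16.6, 22.3 and 2.75 in BPH-1, PC3 and DU145), and the nearest to NOTCH3 was MRPL15 (0.0752). HES1 was nearest to FAM84A (0.0356), HEY1 to TBX2 (0.0205), DLL1 to METAP2 (0.0219), JAG2 to SAPCD2 (0.0151), HES4 to LRCH3 (0.0107), NOTCH2 to CAPN1 (0.0182) and NOTCH1 to YWHAQ (0.00388). Patterns over 3 means are shared by many genes, as 538 genes lay within 0.2 of NOTCH1, while 5 lay that near to JAG1 and 6 to NOTCH3.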

How the data were processed

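RNA-sequencing of 4 libraries each of BPH-1, PC3 and DU145 was analysed. The authors deposited 1 table of FPKM for 58302 genes, and its header names no unit. The form was found from the values: with gene length as the sum of distinct exons in GENCODE 29, 95.9% to 96.9% of low values (up to 20 reads) came out within 0.02 of a whole read. NOTCH1 and JAG1 did not, and their lengths were taken from the steps of their values. These were 10617 and 11131 bases, against 11991 and 12123 in the annotation. The choice sets their reads and their merged-exon FPKM, but not their deposited FPKM. Their merged lengths came from GENCODE 29, where their loci differ from the deposited ones. The submitters' processing notes name CASAVA 1.8, HISAT2 2.1.0, edgeR and GRCh38, with no roles. The counting program, annotation and use of strand are not given in the sources used here, so reads of overlapping and antisense genes may be shared. Columns were assigned by name, and 0 were left unassigned.

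For its analyses in general the study names a signed-rank test, which needs paired samples, and a chi-square test, and for these values a threshold on p. limma 3.58.1 (R 4.3.3, intensity trend, two-sided) was fitted to log2(FPKM + 1) of the 2 lines compared, over genes that reached 10 reads (scaled to the median depth) in 4 libraries and 15 reads in total. The 263 genes without a length were left out. P-values were adjusted over all genes tested (Benjamini-Hochberg, threshold 0.05). The exact permutation test over 8 libraries is two-sided, and its smallest p is 0.0286. For the GC correction, a spline with 5 degrees of freedom of log2 FPKM on gene GC content, over 9218 genes with at least 50 reads in every library, was divided out of each library. It also removes any real difference that follows GC content. Alternatives were other pseudocounts, filters, scalings, fits, a count-based fit (voom) on the recovered reads and leaving out libraries. Those chosen after seeing the data were DU145 replicates 2 and 4 only and the GC correction with a replicate block. The scripts were tested on simulated data. Depth was 15262886 to 15606586 reads in BPH-1, 12950663 to 13871726 in PC3 and 13416342 to 16309559 in DU145, and intervals on reads cover counting error only.

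The 10 genes, the pathway and marker lists and the rules for naming genes were chosen with earlier results of these data known. Named pathway genes were, in each comparison, the 5 called genes with the largest log2 fold change, and RBPJ, DLL3, DLL4, HEY2, HES6 and NRARP. Values of some genes on these lists are not reported here. Tables and figures were made in Python 3.11.15 (pandas 2.3.3, numpy 2.4.6, scipy 1.17.1, matplotlib 3.10.9).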

Additional observations from a re-analysis of the deposited data

Results flagged for a closer look

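The effect of a PCa line relative to BPH-1 differed between PC3 and DU145 for 6 of the 8 members tested. The comparison of the PCa lines with each other tests this directly, and 48.3% of the 16420 genes tested were called in it. The log2 fold change of PC3 against DU145 was -3.07 for NOTCH3, 2.55 for JAG1, 1.23 for JAG2, 2.17 for HES1, 0.70 for HES4 and 1.29 for HEY1, each with a limma BH-adjusted p of at most 0.00654. For HES1 the difference from BPH-1 was in opposite directions, up in PC3 and down in DU145, and both were called.

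In 2 of the 30 sets of 4 libraries examined (10 genes in 3 lines), 1 library stood far from the other 3, where chance alone picks out about 5% of sets. NOTCH4 in PC3 replicate 1 had an FPKM of 0.0485, which came from 8 reads. HES4 stood at 2.59 in BPH-1 replicate 2, with the other BPH-1 libraries between 1.65 and 1.79.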

How the results depend on the processing

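Every call of DLL1, HES1, HEY1, JAG2 in the comparisons with PC3, JAG1 in the comparisons with DU145, HES4 in the comparisons with DU145 and NOTCH3 in the comparisons with PC3 was kept under every alternative run for it. For DLL1 this adds little, as the filter was met by its BPH-1 libraries alone. In PC3 against BPH-1, the number of members called lower was 2 as reported, 1 with at least 10 reads required in every library, where DLL1 was no longer tested, and 4 with the same summed FPKM. In DU145 against BPH-1, the number called higher was 2 as reported and 1 without a filter, with the same summed FPKM, with the GC trend divided out (with or without a replicate block), with DU145 replicates 2 and 4 only and by the exact permutation test. It was 1 to 2 when libraries were left out in turn, being 1 without BPH-1 replicate 1 or 3 or DU145 replicate 1 or 3. In each of these settings NOTCH3 was the call that was lost. Directions turned only for differences below the threshold. In PC3 against BPH-1 NOTCH2 was 0.036 with upper-quartile scaling, and HES4 was -0.010 with the same summed FPKM and -0.28 with the GC trend divided out, with or without a replicate block. With DU145 replicates 2 and 4 only, NOTCH4 was -0.028 against BPH-1 and NOTCH1 0.13 in PC3 against DU145. JAG2 in DU145 against BPH-1 ranged from -0.20 to 0.018 when libraries were left out in turn, and was positive without DU145 replicate 2. NOTCH1 in PC3 against BPH-1 was called without PC3 replicate 4 (-0.41, limma BH-adjusted p = 0.00704). JAG1 in PC3 against BPH-1 lost its call without BPH-1 replicate 3 or 4 or PC3 replicate 1 or 2, at 0.25 to 0.35. NOTCH2 in PC3 against BPH-1 was called with the same summed FPKM (-0.39, limma BH-adjusted p = 0.00472).

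Replicate numbers are shared between lines, but same-numbered libraries did not deviate together, with correlations between -0.67 and 0.52, so the numbers were not taken as pairs. With the replicate number as a block, the called genes among all tested went from 11085 to 10733 in PC3 against BPH-1, from 10666 to 10131 in DU145 against BPH-1 and from 7936 to 6747 in PC3 against DU145. The counts of members called with the block were 4 higher and 2 lower, 2 higher and 5 lower, and 5 higher and 1 lower, as without it. The causes of these changes were not tested. Depth limits NOTCH4 everywhere and DLL1 in the PCa lines, where a library holds at most 35 and 6 reads.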

Other observations

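HES5 is a Notch target of the pathway list that passed no filter, and it is named here after its values were seen. In BPH-1 its FPKM was 0.0497, 0.652, 0 and 0.785, and it was listed at 0 in every PC3 and DU145 library. The BPH-1 libraries with the higher HES5 values, replicates 2 and 4, were also those with the higher NOTCH3 values (5.96 and 9.34 against 1.68 and 1.66) and the higher HES1 values (9.27 and 9.16 against 7.72 and 6.50). HEY2 was also higher there (0.837 and 0.491 against 0.213 and 0.400). Other targets did not follow, as NRARP was 11.1, 6.96, 12.7 and 14.95 in BPH-1. HES7 was 3.60, 5.25, 4.79 and 3.97, and HEY1 was 0.191 in replicate 2 and 0.194 in replicate 3. The GC trend of BPH-1 was -0.94 and -0.90 in replicates 2 and 4 and -1.03 and -1.09 in replicates 1 and 3, and its part in these values was not tested. HES2 in BPH-1 was 0.712, 1.55, 2.63 and 6.55, with replicate 4 the highest. DTX1, a ubiquitin ligase of the pathway list, was listed at 0 in every library of BPH-1 and PC3 and had a mean FPKM of 0.508 ± 0.172 (SD, n = 4) in DU145.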
